A study of Mus musculus with 16 samples.

Results

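The genes described here are 10 UDP-glucuronosyltransferase genes, *Ugt2b34*, *Ugt2b1*, *Ugt2b35*, *Ugt2b36*, *Ugt2b5*, *Ugt2b37*, *Ugt2a3* and *Ugt2b38* on mouse chromosome 5 and *Ugt3a1* and *Ugt3a2* on chromosome 15, out of 22350 protein-coding genes in the mm9 annotation. All open chromatin sites from 20 kb before to 20 kb after each gene were taken. Overlapping sites of the 4 lists were joined, which gave 39 regions (29 on chromosome 5 and 10 on chromosome 15) out of 51482 in the genome, and 5 of the 39 lay in the windows of more than 1 of the genes. The members were chosen as a gene family.

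DNase-seq marks open chromatin, where the enzyme DNase I cuts DNA in nuclei, as DNase hypersensitive sites (DHS). Nuclei came from the livers of male and female C57BL/6J (B6) mice, the strain of the mouse reference genome, and male and female CAST/EiJ (CAST) mice, a wild-derived inbred strain of another subspecies. All mice were 8 weeks old, and the DNase I dose was 32 units for all nuclei. The 16 libraries formed 4 groups of 4, by sex and strain, and the 4 libraries of a group were merged before DHS were called, so each group was 1 list without a spread between animals. No test between groups was possible from these merged lists, and all intervals given below cover counting error only.

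UDP-glucuronosyltransferases sit in the membrane of the endoplasmic reticulum and join glucuronic acid to steroids, bile acids, bilirubin, drugs and other small lipophilic molecules, which makes them soluble enough to be excreted in bile or urine. The liver carries much of this work. The Ugt2b enzymes favour steroids and other fatty compounds, and their genes arose by duplication and stand side by side. The Ugt3a enzymes use other sugars than glucuronic acid as the donor.

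Because the genes are copies of each other, the sequences just before their start sites show how alike they are. Below are the 120 bases before the annotated start site of 6 of the Ugt2b genes, from mm9, written 5′ to 3′ on the strand of the gene. The first 3 genes had a DHS over the start site in all 4 lists, except that the female B6 peak of *Ugt2b35* ended just before it. The last 3 had none over it in any list. Capitals mark a 9-base stretch, GTTATANTT, that was picked out after these sequences were read.

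Ugt2b1, minus strand of chr5:87355556-87355675: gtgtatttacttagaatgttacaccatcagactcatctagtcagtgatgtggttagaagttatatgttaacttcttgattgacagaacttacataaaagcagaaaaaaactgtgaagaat
Ugt2b35, plus strand of chr5:87429765-87429884: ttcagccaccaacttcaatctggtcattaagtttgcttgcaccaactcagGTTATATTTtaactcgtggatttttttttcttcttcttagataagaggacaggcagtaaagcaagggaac
Ugt2b36, minus strand of chr5:87521581-87521700: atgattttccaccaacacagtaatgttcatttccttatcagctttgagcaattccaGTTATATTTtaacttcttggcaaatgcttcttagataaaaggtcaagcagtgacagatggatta
Ugt2b5, minus strand of chr5:87569366-87569485: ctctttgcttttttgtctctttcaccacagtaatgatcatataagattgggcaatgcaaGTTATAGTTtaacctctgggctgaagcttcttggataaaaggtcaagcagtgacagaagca
Ugt2b37, minus strand of chr5:87683830-87683949: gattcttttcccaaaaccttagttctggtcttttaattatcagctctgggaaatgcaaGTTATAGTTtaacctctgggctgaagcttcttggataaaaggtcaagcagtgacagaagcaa
Ugt2b38, minus strand of chr5:87853229-87853348: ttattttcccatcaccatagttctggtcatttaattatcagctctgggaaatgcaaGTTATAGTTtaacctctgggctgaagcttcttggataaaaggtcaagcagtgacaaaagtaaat

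The stretch began 61 to 70 bases before the start site in *Ugt2b35*, *Ugt2b36*, *Ugt2b5*, *Ugt2b37* and *Ugt2b38*. On either strand it occurred in 5 of the 10 genes from 250 bases before to 50 after the start site, and in 0.564% of the same window of all 22350 protein-coding genes. Because the stretch was picked from these genes, this difference is no test of enrichment. Over that window *Ugt2b37* and *Ugt2b38* were 92.7% identical in a global alignment, *Ugt2b5* and *Ugt2b37* 85.4%, and *Ugt2b5* and *Ugt2b38* 84.2%. The next pairs were *Ugt2b36* with *Ugt2b37* and with *Ugt2b38*, at 63.5% each. *Ugt2b5*, *Ugt2b37* and *Ugt2b38* were thus the most alike of the 10, and they were the only ones without a DHS over the start site in any list.

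The number of DHS regions differed between the genes as well as between the lists. The male B6 list held 30 of the 39 regions, the male CAST list 27, the female B6 list 19 and the female CAST list 16. The whole lists had 38751, 39562, 26271 and 24888 peaks in that order. *Ugt2b1* had 7 regions in its window, with 6 in B6 males, 4 in B6 females, 7 in CAST males and 6 in CAST females. *Ugt2b35* also had 7, with 7, 4, 6 and 3 in the same order, and *Ugt2b36* had 7, with 7, 3, 4 and 2. These 3 genes had the most regions of the Ugt2 genes in male B6.

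*Ugt2b34* had 4 regions in its window, with 3 in B6 males, 3 in B6 females, 4 in CAST males and 3 in CAST females, and all 4 were shared with the window of its neighbour *Ugt2b1*. *Ugt2a3* had 3 regions, with 3, 2, 2 and 1 in that order. *Ugt2b5* had 2, with 2 in B6 males and 1 in each other list. *Ugt2b37* had a single region, in female CAST, and *Ugt2b38* had 2, both in male CAST, so neither gene had a DHS in a B6 list.

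*Ugt3a1* had 9 regions, the most of any of the genes, with 5 in B6 males, 5 in B6 females, 4 in CAST males and 2 in CAST females. *Ugt3a2* had 2, with 1 in B6 males, 2 in CAST males and none in the female lists. The median was 3.5 regions per window for the 10 genes and 2 for all protein-coding genes, and 25% of all genes had none in any list. In male B6, 2 of the 10 genes had none, beside 29% of all genes, and in female B6 3 of 10, beside 33.8%. In male CAST 1 of 10 had none, beside 28.8%, and in female CAST 2 of 10, beside 35.3%.

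**Figure D1:**
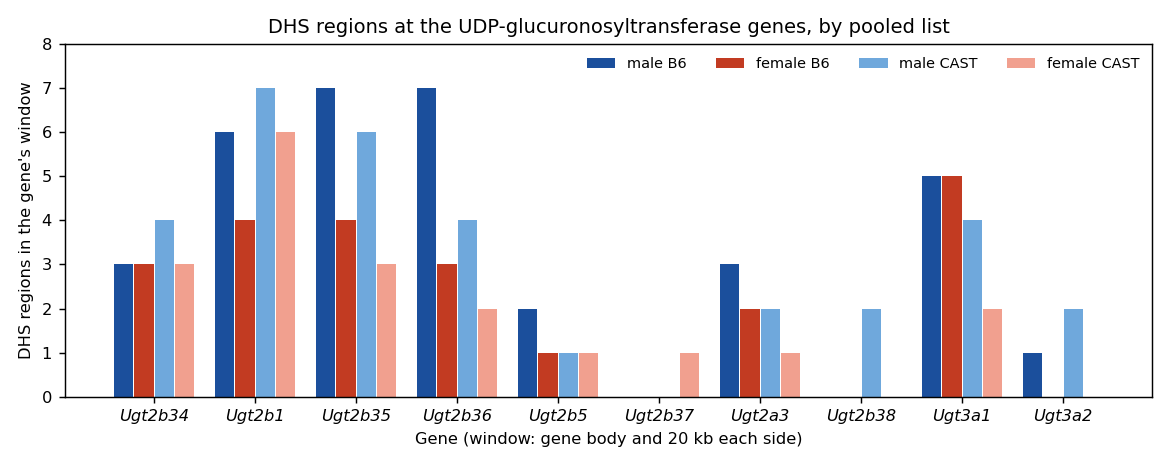
Number of DHS regions (vertical axis) in the window of each of the 10 genes (horizontal axis, gene body and 20 kb each side), with 1 bar for each of the 4 pooled lists. *Ugt2b37* had a bar in female CAST alone and *Ugt2b38* in male CAST alone, and regions within 20 kb of 2 genes count for both.

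Across the 39 regions, 11 were in all 4 lists, which is 28.2%, beside 35.6% of all regions in the genome. Another 16 were in 1 list, which is 41%, beside 35.2% of all regions. These 16 were 7 in B6 males (17.9%, beside 14.2% of all regions), 5 in CAST males (12.8%, beside 15.2%), 3 in B6 females (7.69%, beside 3.13%) and 1 in CAST females (2.56%, beside 2.54%). A further 3 were in both male lists and in neither female list (7.69%, beside 9.38%), and 1 was in both B6 lists and not in CAST (2.56%, beside 3.32%). None was in both female lists alone, beside 0.0622% of all regions, or in both CAST lists alone, beside 3.62%. The other 8 were in 3 lists (20.5%, beside 12.1%), of which 4 lacked a peak in female B6 and 4 lacked one in female CAST. The Ugt2 genes had 10 of 29 regions in all 4 lists and the Ugt3 genes 1 of 10. In 1 list were 10 of 29 Ugt2 regions (34.5%) and 6 of 10 Ugt3 regions, beside 35.2% of all regions. None of these shares was tested against that of all regions.

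For each DHS the deposited fold enrichment gives the reads that overlap the summit, the highest point of the peak, over the local background, and the summit pileup is that number of reads, recovered from the deposited values. A region without a peak in a list has no value there, which is not the same as closed chromatin. At the genome background, the lowest fold enrichment of any peak was 1.9 in B6 males (30 reads), 1.94 in B6 females (28 reads), 1.9 in CAST males (28 reads) and 2.24 in CAST females (19 reads). That background was 15.4, 13.9, 14.3 and 7.94 reads in the same order, so the female CAST list was the shallowest. Over the peaks of the 10 genes the median fold enrichment was 3.4, 3.01, 4.13 and 4.08, beside 3.49, 3.28, 3.74 and 4.06 over all peaks of each list.

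The liver identity of the lists was checked at start sites. Of 6 hepatocyte genes, 6 had a DHS within 1 kb of the start site in the male lists of both strains, and 5 in the female lists, where *Apoa1* lacked one. None of 3 Kupffer cell genes and neither of 2 bile duct genes had one in any list. The endothelial gene *Stab2* had one in all 4 lists and *Lyve1* in male B6, and of 2 stellate cell genes *Reln* had one in 3 lists and *Lrat* in none. The part of other cell types in the regions below was not tested.

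The strongest of the 39 regions in every list was a DHS 7480 bp before the start site of *Ugt2b5*, between genes, at chr5:87576845-87577676. It is shown here over 121 bases around its male CAST summit, plus strand of chr5:87577035-87577155 in mm9, since it exceeded every start-site DHS of the family.

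Ugt2b5 upstream DHS: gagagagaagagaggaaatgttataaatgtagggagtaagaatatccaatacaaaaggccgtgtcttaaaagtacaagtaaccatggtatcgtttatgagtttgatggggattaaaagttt

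Its fold enrichment was 14.5 in B6 males (319 reads at the summit), 9.91 in B6 females (147 reads), 17.7 in CAST males (410 reads) and 16.5 in CAST females (170 reads). It ranked at the 99.5, 98.6, 99.9 and 99.9 percentile of its list in that order, and the 4 summits lay within 42 bp of each other. Its width was 832, 744, 762 and 512 bp. The region was thus among the strongest of each list, with its lowest value in female B6. The female CAST value was 1.4 times the female B6 value relative to all regions shared by these lists (95% interval 1.12 to 1.76).

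All 50-base stretches of this region occurred once in mm9. The best local match of its sequence in the *Ugt2b38* window aligned over 193 columns with 88.1% identity, and its 170 identical bases were 20.4% of the bases of the region. In the *Ugt2b37* window the best match had 48 identical bases, which were 5.77%. The only other region of *Ugt2b5* was in an intron 1125 bp after the start site, in male B6 alone, at a fold enrichment of 2.32 (37 reads).

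*Ugt2b1*, whose product conjugates steroids and other lipophilic compounds, had the strongest start-site DHS, at chr5:87355103-87355930 over its first coding exon. The fold enrichment was 10.4 in B6 males (271 reads), 5.76 in B6 females (85 reads), 9.72 in CAST males (326 reads) and 9.25 in CAST females (125 reads). Female B6 was the low list, and the other 3 lay between 9.25 and 10.4. Relative to all shared regions, the male to female ratio was 1.36 in B6 (1.06 to 1.76) and 0.882 in CAST (0.716 to 1.09), and the difference between these ratios was not tested. The summits lay within 51 bp.

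Further upstream of *Ugt2b1*, 3 regions between genes were stronger in male CAST than in male B6. The region 15411 bp before the start site had a fold enrichment of 4.03 in B6 males, 4.09 in B6 females, 6.26 in CAST males and 4.95 in CAST females. The region at 11622 bp had 2.44 in B6 males, 3.57 in CAST males and 3.24 in CAST females, and the region at 18655 bp had 2.08, 3.35 and 2.68. Neither of these last 2 had a peak in female B6. Relative to all shared regions the male CAST values were 1.47 (1.13 to 1.92), 1.39 (0.978 to 1.98) and 1.52 (0.998 to 2.37) times those of male B6, and the intervals of the last 2 include 1. With summit pileup over the genome background in place of fold enrichment, the male B6 over male CAST ratios were 0.459, 0.551 and 0.437 in that order. A region at chr5:87345535-87346268 over the last exon of *Ugt2b1*, in its untranslated part, was in male CAST alone at 3.67 (55 reads).

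*Ugt2b34*, the neighbour of *Ugt2b1*, had a weak DHS over its start site at chr5:87335657-87336361. Its fold enrichment was 3.02 in B6 males, 2.42 in B6 females, 2.55 in CAST males and 2.71 in CAST females. A stronger region lay 3364 bp upstream, between *Ugt2b34* and *Ugt2b1*, with 7.01 (152 reads), 4.09 (60 reads), 6.59 (166 reads) and 5.64 (59 reads) in the same order. Both were in all 4 lists, and the upstream region was the stronger in each.

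**Figure D2:**
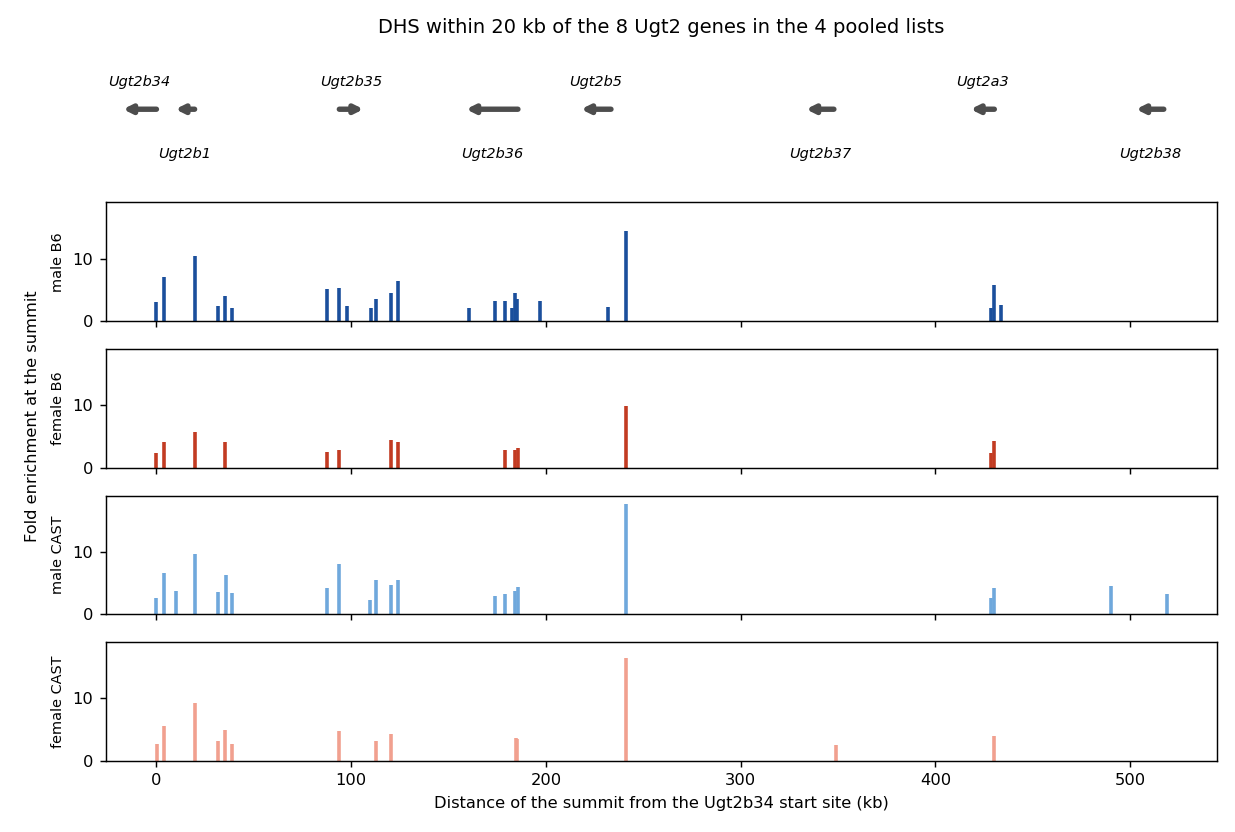
Fold enrichment at the summit (vertical axes, from 0) of every DHS within 20 kb of the 8 Ugt2 genes against the distance of the summit from the *Ugt2b34* start site in kb (horizontal axis), with 1 panel for each pooled list. Arrows show the genes in the direction of transcription, and the tallest line in all 4 panels is the DHS upstream of *Ugt2b5*, at 14.5, 9.91, 17.7 and 16.5.

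*Ugt2b35* had a DHS region over its start site at chr5:87429338-87430288, with a peak in all 4 lists. In female B6 the peak ended at 87429857, just before the start site at 87429885. The fold enrichment was 5.23 in B6 males (111 reads), 2.81 in B6 females (41 reads), 8 in CAST males (150 reads) and 4.81 in CAST females (42 reads). The male value was the higher in each strain and the CAST value the higher in each sex. Relative to all shared regions the male to female ratio was 1.41 in B6 (0.978 to 2.07) and 1.4 in CAST (0.986 to 2.02), and the male CAST value was 1.45 times that of male B6 (1.12 to 1.87). Both sex ratios have intervals that include 1.

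The other regions around *Ugt2b35* differed in presence, most often by a missing female peak. The region 5871 bp upstream had a fold enrichment of 5.2 in B6 males, 2.55 in B6 females and 4.13 in CAST males, and no peak in female CAST. Its male to female ratio in B6, 1.55 relative to all shared regions (1.04 to 2.34), was the highest of the 16 regions shared by the B6 lists by fold enrichment, but it was 1.23 with summit pileup over the genome background, below the *Ugt2b1* start-site region at 1.73. The region 29464 bp after the start site, beyond the gene, had 6.34, 4.15 and 5.49 in the same lists and again no peak in female CAST. The region at 18198 bp had 3.55 in B6 males, 5.52 in CAST males and 3.13 in CAST females, without a peak in female B6. By contrast, the region at 26384 bp had 4.5, 4.41, 4.7 and 4.36 in the 4 lists and was nearly even across them. The 2 remaining regions were weak, at 2.39 in male B6 alone, over a coding exon, and at 2.1 and 2.3 in both male lists.

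*Ugt2b36* had 2 DHS over annotated start sites, both in all 4 lists. The one at chr5:87521154-87522053, at the first coding exon, had a fold enrichment of 3.57 in B6 males, 3.18 in B6 females, 4.29 in CAST males and 3.49 in CAST females. The other, at chr5:87520019-87520693, over the start site of another transcript, had 4.47, 2.89, 3.71 and 3.73. Their male to female ratios relative to all shared regions lay between 0.836 and 1.17 in the 2 strains, with intervals that all include 1. Within the gene a region 10021 bp after the start site was in both male lists alone, at 3.25 and 2.96, and a region at 5111 bp was in all but female CAST, at 3.16, 2.81 and 3.25. The other 3 regions were in male B6 alone, at 2.04, 2.08 and 3.18.

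*Ugt2a3*, whose product conjugates bile acids, had a DHS over its start site at chr5:87765315-87766344. The fold enrichment was 5.85 in B6 males (146 reads), 4.22 in B6 females (65 reads), 4.22 in CAST males (79 reads) and 3.91 in CAST females (34 reads). Male B6 was the high list, at 1.46 times male CAST relative to all shared regions (1.11 to 1.95), the highest of the 22 regions shared by the male lists. A region in an intron 1506 bp after the start site was weak in 3 lists, at 2.16, 2.39 and 2.54, and one 2999 bp upstream was in male B6 alone at 2.57.

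*Ugt2b37* and *Ugt2b38* had their upstream DHS in CAST lists alone. The *Ugt2b37* region, chr5:87684811-87685174, 982 bp before the start site, had a fold enrichment of 2.46 in CAST females (21 reads), where the lowest pileup of any peak at the genome background was 19. The *Ugt2b38* region, chr5:87854638-87854946, 1410 bp before the start site, had 3.21 in CAST males (48 reads). The regions were in lists of opposite sex, yet they lay in matching sequence. A local alignment gave 85.4% identity over 301 columns. Shown are 121 bases around each summit, plus strand of mm9, since they carry this match, and capitals mark their longest identical run, of 49 bases.

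Ugt2b37 female CAST DHS, chr5:87684917-87685037: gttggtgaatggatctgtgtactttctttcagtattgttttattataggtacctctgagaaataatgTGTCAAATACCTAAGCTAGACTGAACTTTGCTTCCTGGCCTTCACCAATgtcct
Ugt2b38 male CAST DHS, chr5:87854789-87854909: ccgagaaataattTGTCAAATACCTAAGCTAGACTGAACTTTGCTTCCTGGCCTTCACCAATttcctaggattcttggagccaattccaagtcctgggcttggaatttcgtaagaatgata

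The bases are those of mm9, which is B6, and CAST bases can differ. All 50-base stretches of both regions occurred once in mm9. A matching stretch also lay 1034 bp before the *Ugt2b5* start site (86.6% identity over 172 columns of the *Ugt2b38* region), and no list had a DHS there. The second region of *Ugt2b38*, at chr5:87826036-87826340, beyond the 3′ end of the gene, was in male CAST alone at 4.46 (67 reads). It aligned to the male B6 region 11259 bp upstream of *Ugt2b36*, at 3.18 (51 reads), with 87.2% identity over 265 columns. Of that *Ugt2b36* region, 80.9% of 50-base stretches occurred once in mm9, the lowest of the 39 regions. Among all 741 pairs of the 39 regions, 11 aligned with a score of at least 40 (identical bases less penalties). They include *Ugt2b35* and *Ugt2b36* start-site DHS, 78% identical over 527 columns, and the start-site DHS of the 2 Ugt3a genes.

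**Figure D3:**
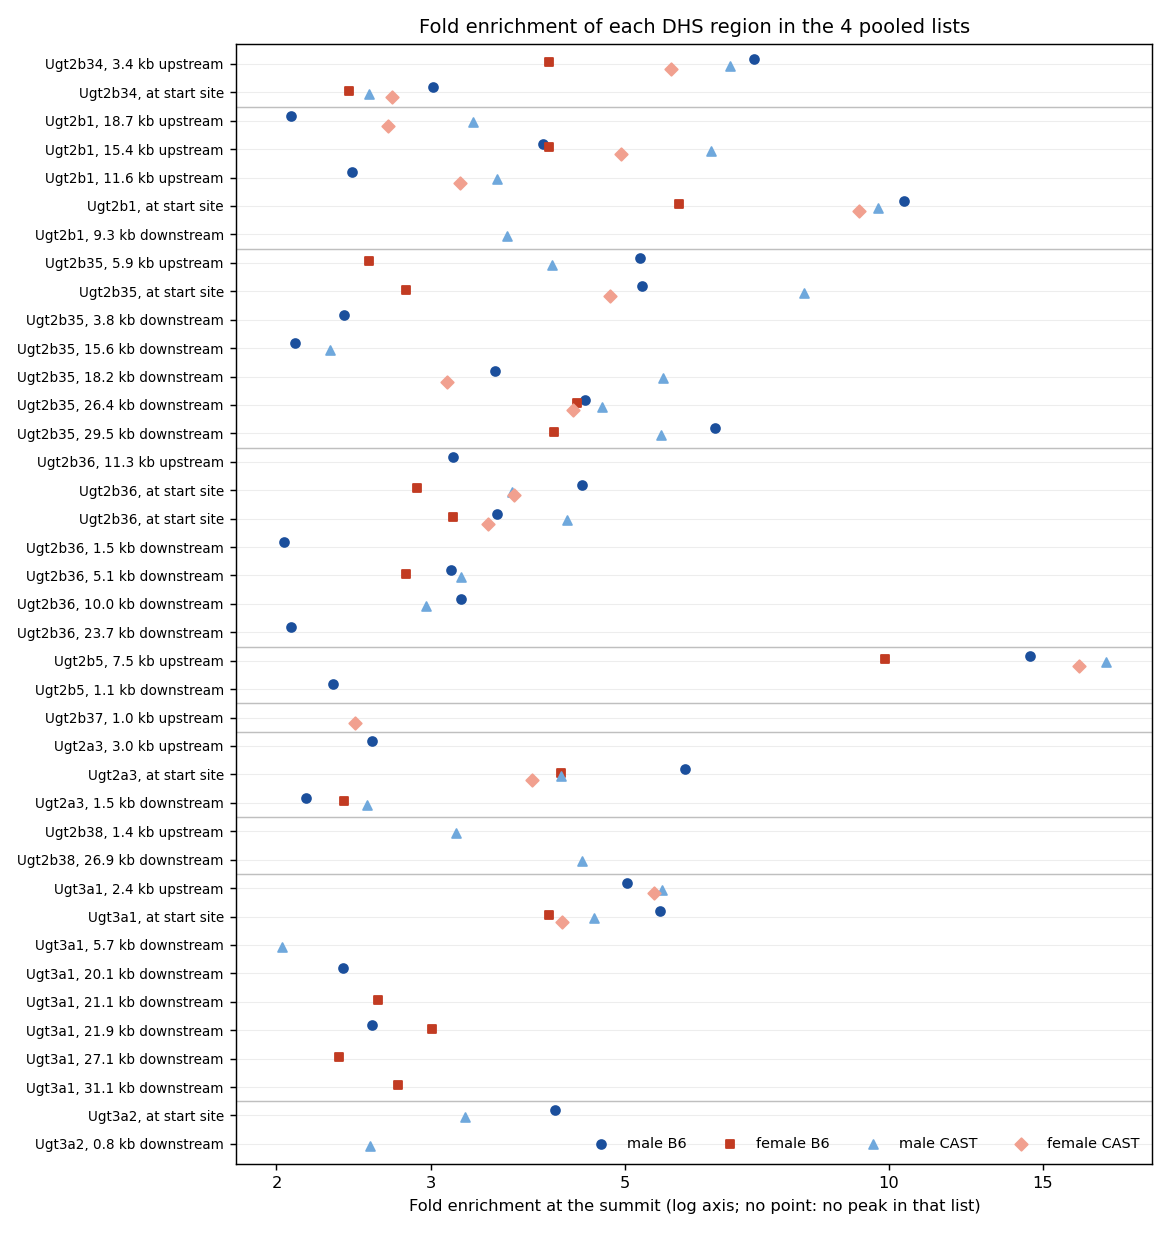
Fold enrichment at the summit (horizontal log axis) of each of the 39 regions (rows, named by the nearest gene and the distance from its start site) in the 4 pooled lists, with no point where a list had no peak. The rows of *Ugt2b37* and *Ugt2b38* hold a single CAST point each, at 2.46, 3.21 and 4.46, and 3 rows of *Ugt3a1* hold a female B6 point alone, at 2.36 to 2.75.

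Reads that match several copies were not kept by the authors, so the unique share of each start site bears on where a DHS could be called. Of all 50-base stretches (the read length) within 1 kb of the start site, the share that occurred once in mm9 was 57.9% for *Ugt2b38*, 70.9% for *Ugt2b5* and 89.5% for *Ugt2b37*. In the other 7 genes it ranged from 88.4% for *Ugt2b1* to 100% for *Ugt2b34*. From 250 bases before to 50 after the start site it was 92.3% for *Ugt2b5*, 80.3% for *Ugt2b37* and 83.7% for *Ugt2b38*, and at least 95% in the other 7. The 3 genes without a DHS over the start site in any list thus had the lowest values in that window, where most stretches were still unique. Of the 39 regions, 30 were unique throughout (76.9%), beside 92.5% of the 5481 regions on chromosomes 5 and 15. The part of lost reads in the missing DHS was not tested, since read pairs and CAST bases were not modelled.

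**Figure D4:**
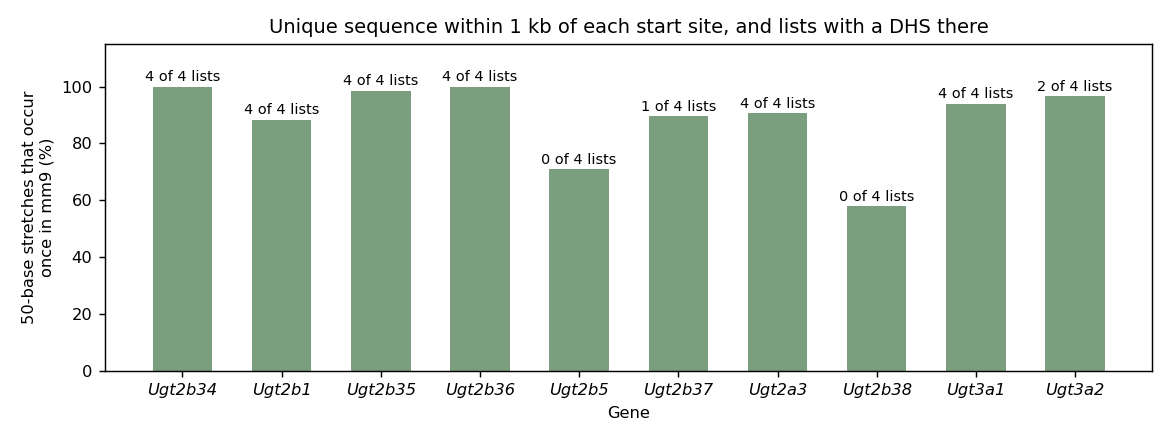
Share of 50-base stretches that occurred once in mm9 within 1 kb of each start site (vertical axis, percent, from 0) for the 10 genes, with the number of lists that had a DHS within 1 kb written above each bar. *Ugt2b38* (57.9%) and *Ugt2b5* (70.9%) had the lowest bars and a DHS in none of the 4 lists.

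On chromosome 15, *Ugt3a1* and *Ugt3a2* stand in tandem on the plus strand. Their products take other sugar donors, and in people *UGT3A1* uses UDP-N-acetylglucosamine and *UGT3A2* uses UDP-glucose and UDP-xylose. The 120 bases before each start site are shown because the 2 genes differed in the lists that had a DHS there.

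Ugt3a1, plus strand of chr15:9209464-9209583: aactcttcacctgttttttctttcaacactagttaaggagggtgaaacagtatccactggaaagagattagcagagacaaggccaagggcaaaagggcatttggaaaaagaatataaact
Ugt3a2, plus strand of chr15:9265185-9265304: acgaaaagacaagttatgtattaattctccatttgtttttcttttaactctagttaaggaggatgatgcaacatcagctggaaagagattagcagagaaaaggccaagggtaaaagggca

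The start-site regions of the 2 genes were 69.4% identical over 974 columns. The *Ugt3a1* region, chr15:9208570-9209899, had a fold enrichment of 5.48 in B6 males (113 reads), 4.09 in B6 females (60 reads), 4.61 in CAST males (120 reads) and 4.24 in CAST females (48 reads). The *Ugt3a2* region, chr15:9264641-9265659, had 4.16 in B6 males (67 reads) and 3.28 in CAST males (49 reads), and no peak in either female list. *Ugt3a2* was the only gene of the 10 whose start-site DHS was in both male lists and in neither female list. The −log10 q of this DHS was 19.7 in B6 males and 10.4 in CAST males. With lists of equal size no region of the 10 genes was in both male lists alone, so this pattern was lost, and at a minimum −log10 q of 15.7 the CAST male peak was lost. At that minimum 4 other regions of the 10 genes were in both male lists alone. Of all regions in the genome, 9.38% had that pattern.

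The other regions of *Ugt3a1* included one 2444 bp upstream with a fold enrichment of 5.03 in B6 males (94 reads), 5.51 in CAST males (130 reads) and 5.4 in CAST females (55 reads), and no peak in female B6. It was the strongest male B6 region of these genes that female B6 lacked. Deep in the introns of *Ugt3a1*, from 20115 to 31085 bp after the start site, were 5 weak regions that B6 lists alone held. Female B6 had 4 of them, at 2.61, 3.01, 2.36 and 2.75, with 35 to 44 reads at the summit. Male B6 had the region at 21950 bp in common with female B6, at 2.57 beside 3.01, and another at 2.38. The 3 regions in female B6 alone were among these 5, and none of the 5 had a peak in a CAST list. Of all regions, 3.13% were in female B6 alone, 14.2% in male B6 alone and 3.32% in both B6 lists alone. The −log10 q of these peaks ran from 3.59 to 7.84, so all 5 were lost at a minimum of 15.7, and with lists of equal size no region was in both B6 lists alone. *Ugt3a1* had 1 more weak region in male CAST alone, at 2.03, and *Ugt3a2* one at 2.56, 754 bp after its start site.

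Male and female lists were compared within each strain to ask which sites open in 1 sex. In B6, 14 of the 33 regions that either list held were in males and not females, which is 42.4%, beside 36.4% of all regions, and 3 of 33 were in females and not males, beside 5.13%. In CAST, 12 of 28 were in males and not females (42.9%, beside 40.3%), and 1 of 28 in females and not males, beside 3.9%. The excess of male DHS at these genes was therefore close to that over the genome. Of male B6 regions with a fold enrichment under 3, 9 of 11 had no peak in female B6 (75.9% of all regions), of those from 3 to under 5, 4 of 10 (26%), and of those at 5 or more, 1 of 9 (2.66%). The last was the *Ugt3a1* region 2444 bp upstream. In CAST the same counts were 5 of 6 (83.3%), 6 of 13 (38.2%) and 1 of 8 (3.69%), the last being the region 29464 bp after the *Ugt2b35* start site. The female lists had the lower genome background in each strain, given above, and with pileups thinned to the lowest background the 10 genes kept 27 regions in B6 males, 18 in B6 females, 26 in CAST males and 16 in CAST females. With each list limited to the 24888 peaks of highest −log10 q, the length of the shortest list, the counts were 18, 19, 19 and 16 in that order. The excess in males was then lost in B6, while CAST males held 19 against 16 in CAST females. Lists of equal length have no male excess over the genome by design, so these counts cannot test the excess at these genes. The part of read depth at single regions was not tested.

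Where both sexes had a DHS, the ratio of fold enrichment was taken relative to its median over all regions shared by the 2 lists, which was 1.32 for male over female B6 and 1.19 for male over female CAST. In B6, 1 of 16 shared regions was at least 1.5 times higher in males, the region upstream of *Ugt2b35*, beside 2.62% of all shared regions. With summit pileup over the genome background in place of fold enrichment the ratio of that region was 1.23, and the 2 regions past 1.5-fold were others, the *Ugt2b1* start-site region at 1.73 and the region 29464 bp after the *Ugt2b35* start site at 1.54. By fold enrichment another, the *Ugt3a1* intron region at 21950 bp, was 1.55 times higher in females (0.989 to 2.43), beside 2.6%. In CAST none of 15 was that much higher in males (background 3.31%) or in females (2.56%). The relative ratios ran from 0.646 to 1.55 in B6, with a median of 1.03, and from 0.79 to 1.48 in CAST, with a median of 0.913.

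**Figure D5:**
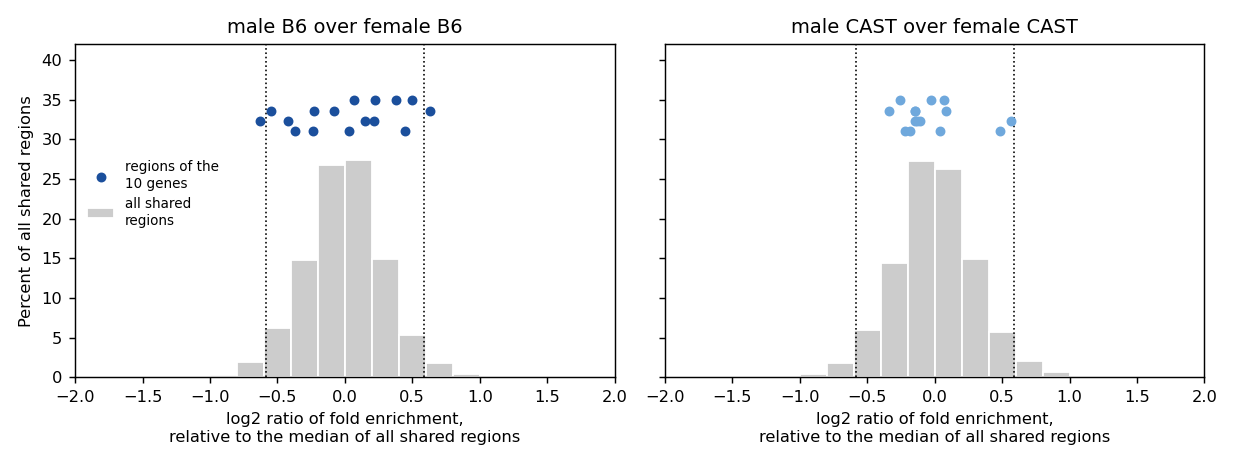
Male over female log2 ratio of fold enrichment, relative to the median of all shared regions (horizontal axis), in B6 and in CAST. Grey bars give the percent of all shared regions per bin (vertical axis), points give the 16 B6 and 15 CAST shared regions of the 10 genes at heights without meaning, and dotted lines mark 1.5-fold, which 1 point passes on either side in B6 and none in CAST.

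B6 and CAST lists were compared within each sex to ask which sites depend on the strain. In males, 8 of 35 regions were in B6 and not CAST (22.9%, beside 19.1% of all regions), and 5 of 35 were in CAST and not B6 (14.3%, beside 20.9%). In females, 8 of 24 were in B6 and not CAST (33.3%, beside 22.6%), and 5 of 24 in CAST and not B6 (20.8%, beside 18.3%). The 8 in B6 females were 4 *Ugt3a1* intron regions, 2 regions of *Ugt2b35*, 1 of *Ugt2b36* and 1 of *Ugt2a3*.

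At regions shared by both male lists, none of 22 was at least 1.5 times higher in B6 relative to the median (background 4.49%). One of 22 was that much higher in CAST, the region 18655 bp upstream of *Ugt2b1*, beside 6.68%. In females none of 11 was that much higher in B6 (background 3.42%) or in CAST (4.97%). With summit pileup over the genome background in place of fold enrichment, 4 regions were that much higher in CAST males, 2 in B6 males, 2 in CAST females and 0 in B6 females. The 4 in CAST males include the upstream regions of *Ugt2b1* whose pileup ratios are given above. The median ratio of B6 over CAST was 0.947 in males and 0.842 in females over all shared regions. The members' median relative ratios were 1.02 and 0.981.

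Short motifs of liver transcription factors were searched on both strands in 300 bases around each summit, as exact letters. The HNF1 motif GTTAATNAT was in 3 of the 39 regions (7.69%), beside 2.03% of all regions, and all 3 were regions of *Ugt2b35*, at 5871 bp upstream and at 18198 and 29464 bp after the start site. The HNF6 motif ATTGATTT was in 5 (12.8%, beside 2.97%), of which 3 were in the window of *Ugt2b1*. The C/EBP motif TTGCNNAA was in 10 (25.6%, beside 17.2%) and the FOXA motif TGTTTAC in 4 (10.3%, beside 6.59%). The STAT5 motif TTCNNNGAA, which is bound by a factor that carries the growth hormone signal in liver, was in 4 (10.3%, beside 10.2%). ATCGAT, a core for CUX2 and HNF6, was in 1 (2.56%, beside 1.85%), and the HNF4 motif CAAAGTCCA was in none, beside 1.67%. The motifs overlap in part in their letters, and a match is no measurement of binding.

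The genes that feed and drain glucuronidation were taken for context. *Ugp2* and *Ugdh* make the sugar donor, *Slc35d1* carries it into the endoplasmic reticulum, *Gusb* removes glucuronic acid again, and *Abcc2* and *Abcc3* export conjugates to bile and blood. Each had a DHS within 1 kb of the start site in all 4 lists, except that *Abcc3* had none in female CAST. Of 3 other transferase genes, *Ugt2a1* had 1 region, in male B6, *Ugt8a* had none, and *Ugt2a2* had no entry in the annotation used. The windows of these 8 annotated genes held 42 regions, of which 17 (40.5%) were in all 4 lists, beside 35.6% of all regions, and 8 (19%) in 1 list, beside 35.2%.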

How the data were processed

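DNase-seq was done on liver nuclei of the 16 mice described above, in 4 groups taken from the labels. The authors mapped uniquely aligned paired reads with Bowtie2, B6 reads to mm9 and CAST reads to mm9 carrying CAST variants, and then moved CAST coordinates to mm9. Each group's 4 libraries were merged by the authors, who called peaks with MACS2 and removed blacklisted regions and peaks of duplicate reads. Per peak, the deposited values are a fold enrichment at the summit (a ratio of pileup to background), −log10 of the p-value and q-value, a display score and the summit's offset within the peak. The score was not used.

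Peaks overlapping by at least 1 bp were joined across the 4 lists, and in each list the strongest peak of a region gave its value. The summit pileup was solved from the fold enrichment and the p-value, and came out within 0.02 of a whole number for at least 99.9% of peaks in each list. Library totals were not used here, and the genome background stood for depth. Ratios were divided by the median of all regions shared by 2 lists, with exact (Clopper-Pearson) 95% intervals on the 2 pileups that treat the backgrounds as known. Regions named are those nearest each start site within 1 kb, the strongest of each window and the 2 strongest of each presence class; the others were named after their values were seen. Genes, start sites and sequences came from mm9 with its GENCODE annotation. The members and lists were chosen with earlier results of these data known. Joining, pileup recovery, ratios and uniqueness were tested on simulated data. Python 3.11.15, numpy 2.4.6, pandas 2.3.3 and scipy 1.17.1 were used.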

Additional observations from a re-analysis of the deposited data

How the results depend on the processing

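No paired analysis was possible because each group was deposited as 1 pooled list, and none could be left out in turn. With peaks at or above the median −log10 q of all peaks (15.7), the 10 genes kept 15 DHS in male B6, 8 in B6 females, 17 in CAST males and 5 in CAST females, with 4 regions in all 4 lists, 6 in 1 list and 0 in both B6 lists alone. With lists of equal size (24888 peaks), male B6 held 18, with 10 regions in 1 list, 0 in both male lists alone, 0 in both B6 lists alone and 2 in both CAST lists alone. With pileups thinned to the lowest background, both CAST lists alone held 1 and both male lists alone held 4. An overlap of 50% of both peaks gave 1 region in both female lists alone, joining within 500 bp gave 2 in both B6 lists alone, and a window of 5 kb left 10 DHS in female CAST. A window of 50 kb moved no count by more than 1.5 times. Undivided by the median, the regions at least 1.5 times higher numbered 6 in male over female B6, 0 in female over male B6, 2 in male over female CAST, 4 in CAST males over male B6 and 3 in CAST females over female B6. At 2-fold there were 0 in male over female B6, 0 in female over male B6 and 0 in CAST males over male B6. With pileup over the genome background there were 2 in male over female B6, neither of them the region called by fold enrichment, 2 in B6 males over male CAST, 4 in CAST males over male B6 and 2 in CAST females over female B6. No ratio past 1.5-fold reversed. The causes of these moves were not tested.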
